A study of Mus musculus with 2 samples.

Results

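The histone genes described here are the rows of the feature table whose symbols begin with H1f, H2ac, H2bc, H3c or H4c, or with the older Hist1 to Hist4 names, and which held at least 30 unique molecular identifiers (UMIs) over both libraries. Of 55357 features, 72 carried such a symbol and 60 reached the minimum. The other 12 were H2ac1, H2ac12, H2ac14, H2ac19, H2bc1, H2bc23, H3c14, H4c17, H1f7, H1f8, H1f9 and H1f11-ps, and 3 of them had 0 UMIs in either library. The 60 members comprised 8 linker histone (H1), 15 H2A, 15 H2B, 11 H3 and 11 H4 genes. In the annotation 50 lie on mouse chromosome 13 and 8 on chromosome 3, and these 58 are called clustered below. The remaining 2, H1f0 on chromosome 15 and H1f10 on chromosome 6, stand alone.

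The study injected RM-1 cells, a mouse prostate cancer line, under the skin of C57BL/6 mice and took the tumours at day 10 of treatment with RP-6306, an inhibitor of the kinase PKMYT1, or with vehicle. PKMYT1 holds the mitotic kinase CDK1 inactive until cells enter mitosis. Both groups carried the genotype label WT and consisted of 1 single-cell 3′ library each, RP-6306 and vehicle. The labels do not settle whether 1 or more mice gave each library, so every difference below is between these libraries. No test between conditions was possible, and all intervals are 95% intervals that cover counting error only.

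Histones package DNA into nucleosomes: H2A, H2B, H3 and H4 form the core and H1 binds the linker DNA between cores. Most histone genes sit in clusters, are transcribed mainly while DNA is replicated, and give mRNAs that end in a stem-loop instead of a poly(A) tail. Some are also polyadenylated, particularly in cells that leave the cycle, and H1f0 is a polyadenylated linker histone known from resting and differentiated cells. A poly(A)-primed 3′ library therefore samples only part of the histone mRNA pool, and the share sampled can differ between members, so levels below are compared between cells and libraries rather than read as the abundance of each protein's mRNA. Because each molecule gives 1 tag near its 3′ end, UMI counts do not scale with transcript length.

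The 3′ end stem-loop, the mark of the replication-dependent class, was present in an annotated transcript (GENCODE M21, GRCm38) of 40 of the 60 members. It is shown for 5 members because they carry much of the signal below, with the arms of the stem in capitals and the loop in lower case.
H1f2, chr13:23739512-23739527, plus strand: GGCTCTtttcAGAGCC
H2ac24, chr13:21833029-21833044, minus strand: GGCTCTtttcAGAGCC
H4c4, chr13:23581950-23581965, plus strand: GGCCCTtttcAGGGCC
H4c9, chr13:22040966-22040981, minus strand: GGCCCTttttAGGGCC
H2ac20, chr3:96220418-96220433, minus strand: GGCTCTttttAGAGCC
The form of H1f2 and H2ac24 was shared by 22 members from the H1, H2A, H2B and H3 families, and the form of H4c4 was found in 5 members, all H4. Annotation continued for 840 bases past the stem-loop in H1f2 and for 770 bases in H4c4, but for 3 bases in H2ac24. More than 100 annotated bases followed it in 19 members, whose median level in tumour cells was 4.33 CPM (UMI counts per 1000000 UMIs). In the 21 with shorter annotated ends the median was 0.889 CPM. Their ranges overlapped widely, with the highest at 319 CPM and 90.4 CPM. No stem-loop match was found in the annotated transcripts of H2bc4, H1f5, H1f0 and H1f10. A missing match says nothing about sequence beyond the annotated end. Some members without a match had short annotated transcripts, such as H2bc13 and H2bc15 with 381 bases.

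Upstream sequences are shown for 4 members that differed along the cell cycle, as the 250 bases before the RefSeq gene start (GRCm38.p6), with matches to CCAAT or TATAAA on either strand in capitals; the matches in these 4 stretches do not overlap.
H1f2, chr13:23738557-23738806, plus strand: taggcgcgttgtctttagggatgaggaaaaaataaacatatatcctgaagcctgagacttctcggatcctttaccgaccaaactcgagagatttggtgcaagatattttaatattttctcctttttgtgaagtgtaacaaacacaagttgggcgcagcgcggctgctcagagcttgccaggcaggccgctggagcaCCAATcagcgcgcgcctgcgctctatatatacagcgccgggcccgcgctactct
H2ac24, chr13:21833476-21833725, minus strand: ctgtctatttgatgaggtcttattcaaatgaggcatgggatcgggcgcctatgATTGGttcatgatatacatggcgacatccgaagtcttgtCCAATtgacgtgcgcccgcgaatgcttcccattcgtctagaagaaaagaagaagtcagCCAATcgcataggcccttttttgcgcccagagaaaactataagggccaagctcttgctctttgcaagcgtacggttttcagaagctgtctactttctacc
H1f5, chr13:21780626-21780875, minus strand: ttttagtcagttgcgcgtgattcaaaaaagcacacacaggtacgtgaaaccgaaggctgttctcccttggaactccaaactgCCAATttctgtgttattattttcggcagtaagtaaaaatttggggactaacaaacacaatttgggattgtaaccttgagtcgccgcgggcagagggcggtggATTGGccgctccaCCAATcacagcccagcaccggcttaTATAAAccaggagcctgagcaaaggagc
H4c4, chr13:23581318-23581567, plus strand: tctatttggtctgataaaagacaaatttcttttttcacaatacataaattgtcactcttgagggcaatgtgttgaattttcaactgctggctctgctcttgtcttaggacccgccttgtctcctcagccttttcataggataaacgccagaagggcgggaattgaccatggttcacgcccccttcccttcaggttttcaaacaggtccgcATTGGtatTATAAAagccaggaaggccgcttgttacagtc
CCAAT occurred in 84.3% of the 51 clustered members with an entry in the promoter table, against 34.5% of all 27025 promoters of the same length. TATAAA occurred in 49.0% of them, against 13.0% of all promoters. H1f2 and H4c4 each held 1 CCAAT match and H2ac24 and H1f5 each held 3.

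Near-identical copies limit which member a read can be given to. Over the last 500 annotated bases, more than 50% of all stretches of 91 bases occurred in another gene for 23 members, and 17 members shared none. H1f2, H2bc4, H1f0, H1f5 and H4c4 were among the 17. H2ac24 shared 92.3% of its stretches, H2ac18 100% and H1f4, which overlaps other gene models, 99.0%, and their counts are uncertain.

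The RP-6306 library held 10512 barcodes with 106465655 UMIs and a median of 8932 per barcode, and the vehicle library held 9686 barcodes with 100815022 UMIs and a median of 9086.5. Filtering left 9500 RP-6306 cells and 8856 vehicle cells, and 34 barcodes occurred in both libraries. Tumour cells (Krt8 and Krt18 together at least 3 UMIs, and Ptprc, Lyz2, C1qa and Fcer1g together at most 1) numbered 7167 in the RP-6306 library and 6894 in the vehicle library. Their markers outside the gate summed to 1124 CPM under RP-6306 and 1224 CPM under vehicle, and 10 of 12 reached 30 UMIs. In these cells the 12 macrophage markers summed to 39.9 CPM under RP-6306 and 40.8 CPM under vehicle, and the 8 T and NK cell markers to 2.21 CPM under RP-6306 and 1.42 CPM under vehicle. The 7 fibroblast markers summed to 849 CPM in RP-6306 tumour cells and 774 CPM in vehicle tumour cells, the 6 endothelial markers to 74.2 CPM under RP-6306 and 59.1 CPM under vehicle, and the 6 neutrophil markers to 5.48 CPM under RP-6306 and 3.03 CPM under vehicle. The part of these in the results below was not tested.

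As a whole, the clustered histone genes made up a slightly larger share of tumour-cell UMIs under RP-6306, and 1 gene, H1f2, accounted for the sign of that difference. The clustered members summed to 1065 CPM (1058 to 1072) in RP-6306 tumour cells and 995 CPM (989 to 1002) in vehicle tumour cells, a ratio of 1.07 (1.06 to 1.08). Without H1f2 the sums were 701 CPM under RP-6306 and 721 CPM under vehicle, a ratio of 0.972 (0.961 to 0.983). Most individual members lay on the lower side. Of 58 members with at least 30 UMIs in tumour cells, 14 were higher and 44 were lower under RP-6306. The 24.1% higher stood against 45.9% of all 16612 features tested. The median log2 ratio was -0.18, against -0.02 over all those features. A feature was counted as past the threshold when its log2 ratio was at least 0.32 in size, a ratio of 5 to 4, in either direction. Of the members, 3 were higher past it, against 10.1% of all features, and 18 were lower, against 9.08% of all features. Past 2-fold, 1 member, H3c10, was lower with 14 UMIs under RP-6306 and 35 UMIs under vehicle, against 0.403% of all features. The split was alike when thinly counted members were left out: among 49 members with at least 100 UMIs, 11 were higher and 38 lower. The share higher was 22.4%, against 44.4% of the 13671 features with at least 100 UMIs. The medians were -0.17 for these members and -0.02 for these features. The count of 3 was 6 with TMM scaling and 7 as a mean of per-cell CPM, and the count of 18 was 9 on the log2(CPM + 1) scale.

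**Figure D1:**
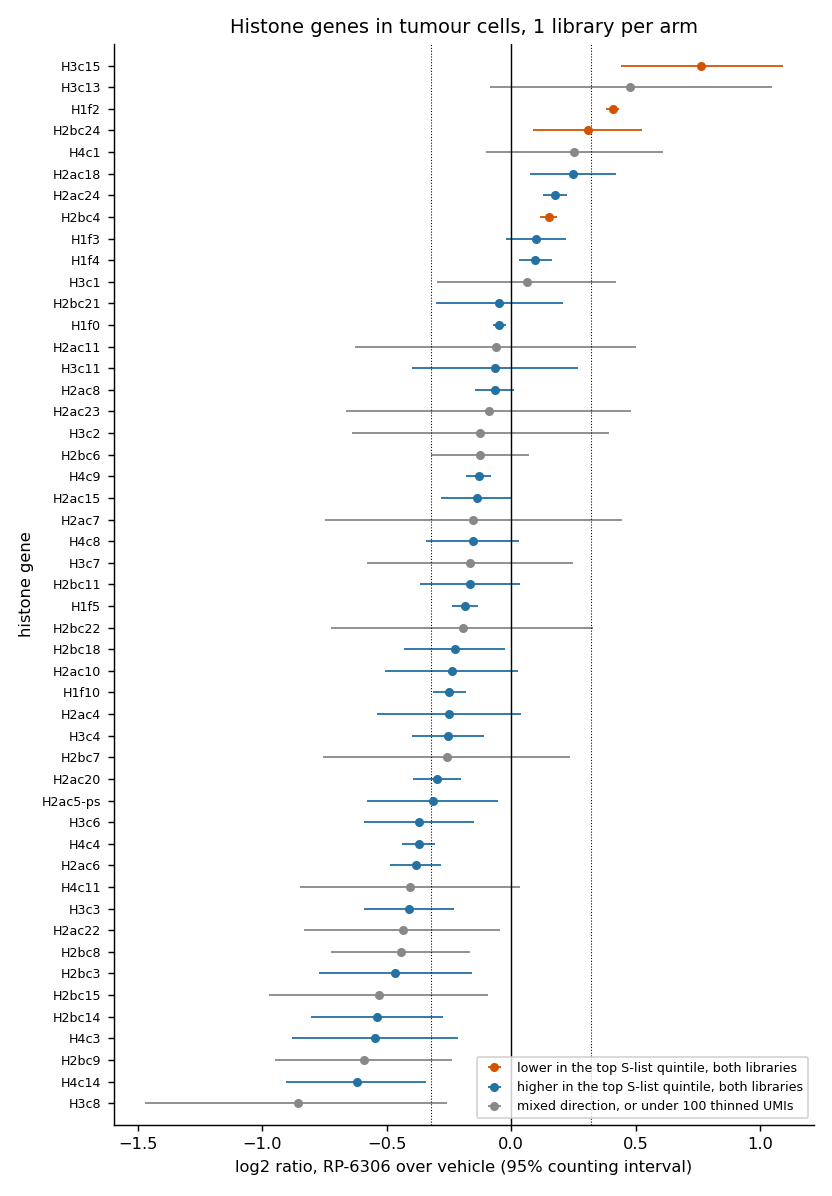
Log2 ratio of tumour-cell level, RP-6306 over vehicle, for the 49 histone genes with at least 100 UMIs (points) with 95% counting intervals (bars). Dotted lines mark log2 ratios of -0.32 and 0.32, colours mark the direction along the S-phase list, and 38 of the 49 points lie left of 0 while H3c15, H3c13 and H1f2 lie right of the upper dotted line.

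The linker histones, which bind DNA between nucleosomes, held most of the signal: H1f2 and H1f0 alone made up 45.0% of all member UMIs in tumour cells. H1f2 (chr13:23738808-23740367, plus strand) was the most abundant member under RP-6306, with 364 CPM in RP-6306 tumour cells and 274 CPM in vehicle tumour cells. Its log2 ratio was 0.41 (0.38 to 0.43), and it lay between 0.38 and 0.47 under all 13 alternative settings tried. The difference was spread over many cells and not carried by a few. In cells thinned to 2000 UMIs, 45.7% (44.5 to 46.9) of RP-6306 cells and 37.0% (35.9 to 38.2) of vehicle cells had an H1f2 UMI, and before thinning 81.6% of RP-6306 cells and 75.2% of vehicle cells had one. At 5000 UMIs per cell, 12.7% of RP-6306 cells and 7.40% of vehicle cells had 5 or more H1f2 UMIs. The 1% of cells with most H1f2 held 6.36% of its UMIs under RP-6306 and 7.19% under vehicle. No cell type here lacks histones, so no background share can be set beside these.

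The other linker histones did not follow H1f2. H1f0 (chr15:79028450-79030504, plus strand), the linker histone of resting cells, had 294 CPM under RP-6306 and 304 CPM under vehicle, a log2 ratio of -0.05 whose sign changed in 2 of 13 alternatives. H1f5 and H1f10 were lower. H1f5 had 72.5 CPM under RP-6306 and 82.4 CPM under vehicle (log2 -0.19), and H1f10 had 40.0 CPM under RP-6306 and 47.5 CPM under vehicle (log2 -0.25). H1f4 and H1f3 were on the higher side but within the threshold. H1f4 had 48.2 CPM under RP-6306 and 45.1 CPM under vehicle, and H1f3 had 14.1 CPM under RP-6306 and 13.2 CPM under vehicle (log2 0.10). H1f3 passed the threshold with cells thinned to 2000 UMIs (log2 0.47) and at the vehicle shares of the 4 cell-cycle ranges described below (0.33). The last 2 linker genes, H1f6, known from testis, and H1f1, were nearly silent. H1f6 had 19 UMIs in RP-6306 tumour cells and 6 UMIs in vehicle tumour cells, and H1f1 had 0 UMIs under RP-6306 and 5 UMIs under vehicle.

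Among H2A genes, none of 15 members was higher past the threshold and 3 were lower, with a median log2 ratio of -0.15. H2ac24, the most abundant of them, was on the higher side with 95.9 CPM under RP-6306 and 84.9 CPM under vehicle (log2 0.18). H2ac8 had 32.1 CPM under RP-6306 and 33.6 CPM under vehicle. H2ac20 and H2ac6 were lower. H2ac20 had 19.3 CPM under RP-6306 and 23.7 CPM under vehicle (log2 -0.30), and H2ac6 had 16.9 CPM under RP-6306 and 22.0 CPM under vehicle (log2 -0.38).

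Among H2B genes, none of 15 was higher past the threshold, against 10.1% of all features, and 5 were lower, against 9.08%. Their median was -0.20, but their sum was higher under RP-6306, with 217 CPM there and 204 CPM under vehicle. H2bc4, the third member by UMIs, had 183 CPM under RP-6306 and 165 CPM under vehicle (log2 0.15). H2bc24 had 393 UMIs under RP-6306 and 310 UMIs under vehicle (log2 0.31). The 2 of lowest ratio, H2bc9 and H2bc14, had log2 ratios of -0.59 and -0.54. H2bc9 had 113 UMIs under RP-6306 and 166 UMIs under vehicle.

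H3 and H4 form the core pair around which nucleosomes are built. Many of their genes were thinly counted, so single ratios carry wide intervals. Of 11 H3 genes, 2 were higher past the threshold, against 10.1% of all features, and 4 were lower, against 9.08%. Their median was -0.17, and their sum was 27.9 CPM under RP-6306 and 32.0 CPM under vehicle. H3c15 had the highest ratio of all members with 100 UMIs, with 219 UMIs (2.68 CPM) under RP-6306 and 126 UMIs (1.58 CPM) under vehicle, a log2 ratio of 0.76 (0.44 to 1.09). H3c13 had 67 UMIs under RP-6306 and 47 UMIs under vehicle, and its interval reached below 0. H3c8 was at the other end with 38 UMIs under RP-6306 and 67 UMIs under vehicle (log2 -0.85, -1.47 to -0.26), but its ratio was -0.16, within the threshold, at the vehicle shares of the 4 cell-cycle ranges described below. Of 11 H4 genes, none was higher and 6 were lower past the threshold, against the same shares of all features. Those shares were not matched for UMI count. The H4 median of -0.37 was the lowest of the 5 families. The H4 sum was 128 CPM under RP-6306 and 150 CPM under vehicle. H4c4 (chr13:23581598-23582735, plus strand), which shares no stretch with another gene, had 38.5 CPM under RP-6306 and 49.8 CPM under vehicle (log2 -0.37, -0.44 to -0.30). H4c9 had 76.4 CPM under RP-6306 and 83.6 CPM under vehicle (log2 -0.13). H4c14 had 176 UMIs under RP-6306 and 264 UMIs under vehicle (log2 -0.62), H4c3 had 130 UMIs under RP-6306 and 185 UMIs under vehicle (log2 -0.55), and H4c1 had 149 UMIs under RP-6306 and 122 UMIs under vehicle (log2 0.25). The sign of H4c3 changed when cells were thinned to 2000 UMIs.

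Neighbouring H2A and H2B genes are often transcribed away from each other from a shared stretch of DNA. Of 11 such pairs among the members, 10 of them H2A with H2B, 9 had the same sign of ratio in both partners, with 8 lower in both and 1 higher in both. Because 44 of 58 members were lower, many unlinked pairs would also share a sign, and that share was not computed. The levels of the partners differed by a median of 7.24-fold within a pair in vehicle tumour cells. The higher pair was H2ac24 and H2bc24, whose starts lie 236 bases apart. H2ac6 and H2bc4, 251 bases apart, had opposite signs, with log2 ratios of -0.38 and 0.15.

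Members fell into sets by their course along the cell cycle. Tumour cells with at least 5000 UMIs (6640 under RP-6306, 6388 under vehicle) were thinned to 5000. They were ordered by the summed UMIs of 43 S-phase genes or 54 G2/M genes, none of which is a member. The G2/M genes include Cenpa, a histone variant outside the set. From the lowest to the highest S-list quintile, the clustered members held 1062, 1004, 925, 913 and 1346 CPM under RP-6306, and 838, 829, 765, 934 and 1434 CPM under vehicle. From the lowest to the highest G2/M-list quintile they held 956, 948, 911, 965 and 1574 CPM under RP-6306, and 804, 741, 693, 890 and 1583 CPM under vehicle. The libraries were thus furthest apart in the 3 lower quintiles of each list and within 10% of each other in the upper ones. Median depth before thinning was also higher in the top S quintile, at 13649 UMIs under RP-6306 and 13830 UMIs under vehicle, than in the lowest, at 8847 UMIs under RP-6306 and 8875.5 UMIs under vehicle, and its part in these courses was not tested.

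H1f2 and H2bc4 ran against the S list. H1f2 had 548 CPM in the lowest and 216 CPM in the highest S quintile under RP-6306, and 366 CPM and 184 CPM under vehicle. H2bc4 had 276 CPM and 86.6 CPM under RP-6306, and 241 CPM and 73.0 CPM under vehicle. H1f5 ran the other way, with 13.4 CPM in the lowest and 194 CPM in the highest S quintile under RP-6306, and 15.3 CPM and 234 CPM under vehicle. H2ac24 had 19.7 CPM and 227 CPM under RP-6306, and 19.1 CPM and 213 CPM under vehicle. H4c4 had 16.5 CPM and 70.7 CPM under RP-6306, and 21.0 CPM and 103 CPM under vehicle. H1f0, though outside the clusters, was also higher in the top quintile, with 246 CPM and 389 CPM under RP-6306, and 201 CPM and 477 CPM under vehicle.

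**Figure D2:**
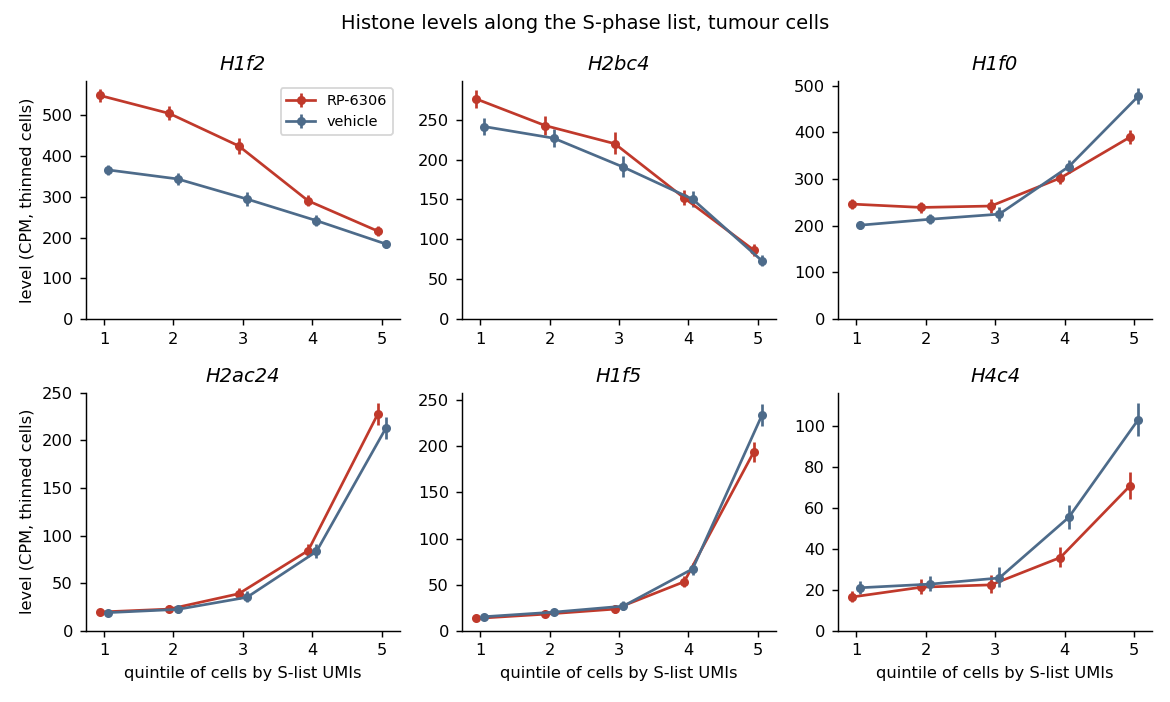
Level in CPM of 6 histone genes over quintiles of tumour cells ordered by S-list UMIs, from lowest (1) to highest (5), in cells thinned to 5000 UMIs, with 95% counting intervals. H1f2 and H2bc4 decline along the axis in both libraries and the other 4 genes climb, and the libraries differ most for H1f2 in the lowest quintile, at 548 CPM under RP-6306 and 366 CPM under vehicle.

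Of the members with at least 100 UMIs in the thinned cells, 28 were higher in the top than in the bottom S quintile in both libraries, 4 were lower in both, and 3 (H4c1, H2bc8 and H2bc6) differed between libraries. The 4 lower ones were H1f2, H2bc4, H2bc24 and H3c15, and all 4 were higher under RP-6306, with a median log2 ratio of 0.36. Of the 28, 4 were higher and 24 lower under RP-6306, with a median of -0.23. This grouping was made from the same cells and is a description. It was set beside the mix of cells. Cells in the top quintile of the S list only made up 10.6% of RP-6306 and 8.11% of vehicle cells. Those in the top quintile of both lists made up 9.49% of RP-6306 and 11.1% of vehicle cells, and those in the top G2/M quintile only 8.39% of RP-6306 and 10.4% of vehicle cells. The rest, in neither, were 71.5% of RP-6306 and 70.4% of vehicle cells. When the levels of both libraries were averaged at the vehicle library's shares of these 4 ranges, an alternative chosen after seeing the data, the 28 split into 11 higher and 17 lower, with a median of -0.03. In the same thinned cells without that averaging they split into 9 higher and 19 lower, with a median of -0.11. The 4 genes that ran against the S list all stayed higher, with a median of 0.40.

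Within those ranges the H1f2 difference was largest in cells low for both lists. There H1f2 had 474 CPM under RP-6306 and 329 CPM under vehicle. In cells high for S only it had 211 CPM under RP-6306 and 166 CPM under vehicle, in cells high for both 222 CPM under RP-6306 and 197 CPM under vehicle, and in cells high for G2/M only 269 CPM under RP-6306 and 253 CPM under vehicle. H1f0 changed sides, with 236 CPM under RP-6306 and 200 CPM under vehicle in cells low for both lists, and 565 CPM under RP-6306 and 633 CPM under vehicle in cells high for both. H2ac24 was at 330 CPM under RP-6306 and 269 CPM under vehicle in cells high for both lists. H1f5 peaked in the same cells, at 283 CPM under RP-6306 and 302 CPM under vehicle. H4c4 was lower under RP-6306 in all 4 ranges, with 112 CPM under RP-6306 and 137 CPM under vehicle in cells high for both.

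**Figure D3:**
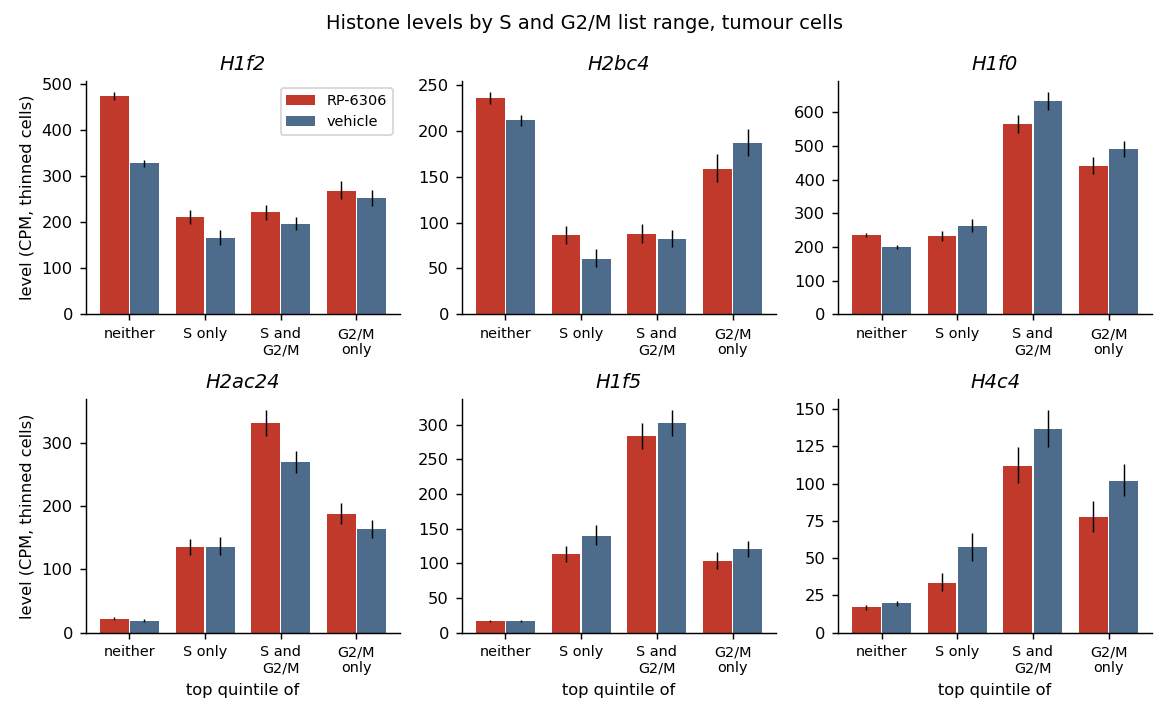
Level in CPM of 6 histone genes in tumour cells thinned to 5000 UMIs that lie in the top quintile of neither list, the S list only, both lists, or the G2/M list only, with RP-6306 bars left of vehicle bars and 95% counting intervals. H1f2 stands at 474 CPM under RP-6306 and 329 CPM under vehicle in cells low for both lists, and H4c4 is lower under RP-6306 in each of the 4 ranges.

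Over single cells, spread could be read for the abundant members. The variance over the mean at 5000 UMIs, which is 1 for random counting, had a median over 49 members of 1.10 under RP-6306 and 1.06 under vehicle; at the low counts of most members this measure stays near 1 whatever their true spread. Averaged over both libraries it was highest for H1f2, at 3.26 under RP-6306 and 2.65 under vehicle. H1f5 had 2.53 under RP-6306 and 2.64 under vehicle, and H1f0 had 2.39 under RP-6306 and 2.66 under vehicle. H2ac24 had 2.59 under RP-6306 and 2.35 under vehicle, and H2bc4 had 2.27 under RP-6306 and 2.33 under vehicle. The measure also rises with a gene's mean, so these values do not rank genes or libraries by spread at equal level. The mean of H1f2 was 2.025 UMIs per cell under RP-6306 and 1.47 under vehicle. That of H1f5 was 0.298 under RP-6306 and 0.348 under vehicle. The genes that climbed along the S list varied together. The sum of the 26 clustered ones had a variance over mean of 5.16 under RP-6306 and 5.60 under vehicle, against 1.76 under RP-6306 and 1.73 under vehicle if the single variances are added. The 10% of cells with most held 49.3% of these UMIs under RP-6306 and 50.1% under vehicle, and 34.0% of RP-6306 cells and 34.4% of vehicle cells had none. These 26 were picked for their course in the same cells. Over all 58 clustered members the 10% of cells with most held 30.3% of the UMIs under RP-6306 and 32.5% under vehicle, and 7.85% of RP-6306 cells and 10.2% of vehicle cells had none.

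The genes outside the set whose counts were most like the sum of those 26 across cells were Top2a, the topoisomerase that untangles replicated DNA (Pearson r = 0.56 over 6640 RP-6306 cells and 0.57 over 6388 vehicle cells), and Pclaf, a partner of the replication clamp (r = 0.55 under RP-6306 and 0.51 under vehicle). Hmgb2, Stmn1, Aurkb, H2ax, Mki67, Cdk1, Smc4 and Tubb5 came next, and Top2a, Hmgb2, Aurkb, Mki67, Cdk1 and Smc4 belong to the G2/M list. For the sum of all 58 clustered members Top2a also led, with r = 0.31 under RP-6306 and 0.39 under vehicle. For the sum of the 4 genes that ran against the S list, no gene had an r above 0.26 in either library, and Rhob, Jund, Dusp1 and Fos led. Cells share their library in these values, and sparse counts keep them low.

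The machinery around histone mRNA differed little between libraries. Of 18 genes for histone transcription and 3′ processing, 17 were tested and none passed the threshold in either direction, with a median log2 ratio of 0.02. Slbp, which binds the stem-loop, had 158 CPM under RP-6306 and 159 CPM under vehicle. Ncbp2, a subunit of the cap-binding complex, was the furthest, with 57.0 CPM under RP-6306 and 46.1 CPM under vehicle (log2 0.30). Casp8ap2, a factor of the bodies in which histone genes are transcribed, had 35.9 CPM under RP-6306 and 30.1 CPM under vehicle. Of 22 histone chaperones, which carry and deposit the proteins, none passed the threshold and the median was -0.02. Npm1 had 2855 CPM under RP-6306 and 2860 CPM under vehicle, and Nap1l1 had 478 CPM under RP-6306 and 477 CPM under vehicle.

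Replacement variants, which are made outside replication and carry poly(A) tails, were not part of the set and none of 9 tested passed the threshold. H3f3b had 4457 CPM under RP-6306 and 4005 CPM under vehicle (log2 0.15), while H3f3a had 1199 CPM under RP-6306 and 1232 CPM under vehicle. The lowest ratios were those of Cenpa, the centromeric H3, with 109 CPM under RP-6306 and 133 CPM under vehicle (log2 -0.29), and H2ax, the H2A variant of the DNA damage response, with 184 CPM under RP-6306 and 216 CPM under vehicle (log2 -0.24). Of the lists that ordered the cells, 13 of 54 G2/M genes were lower past the threshold, against 9.08% of all features, and none higher. Their median was -0.26. Of 43 S-phase genes, 2 were higher, against 10.1% of all features, and none lower, with a median of 0.03. The G2/M list and many single core histone genes were thus lower under RP-6306, though the H2B sum was higher. The share of cells in the top G2/M quintile is not a separate observation, because the quintiles of that list were cut over both libraries together. What part the G2/M list has in the histone levels was not tested beyond the averaging above.

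Macrophages (Lyz2 at least 3 UMIs, Ptprc, C1qa and Fcer1g together at least 2, Krt8 and Krt18 together at most 2) numbered 384 in the RP-6306 library and 355 in the vehicle library, with median depths of 3879.5 UMIs under RP-6306 and 4159 UMIs under vehicle. The 12 macrophage markers outside the gate all passed 30 UMIs and summed to 13596 CPM under RP-6306 and 12506 CPM under vehicle. Neutrophil markers in the gate summed to 1478 CPM under RP-6306 and 49.6 CPM under vehicle. A group of 10 RP-6306 cells held 96.3% of them there and 3 vehicle cells held 46.3%, and without these cells the sums were 55.4 CPM under RP-6306 and 26.7 CPM under vehicle.

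In macrophages, H1f2 was again the member with the most UMIs and again higher under RP-6306. It had 692 UMIs (410 CPM) in RP-6306 macrophages and 491 UMIs (297 CPM) in vehicle macrophages, a log2 ratio of 0.47 (0.30 to 0.64), and lay between 0.19 and 0.63 under 14 alternatives. The lowest value, 0.19, came with the stricter gate and did not pass the threshold. Without the cells rich in neutrophil markers, an alternative chosen after seeing the data, it was 0.47. The clustered members summed to 1295 CPM under RP-6306 and 1147 CPM under vehicle, a ratio of 1.13 (1.06 to 1.20), and without H1f2 to 885 CPM under RP-6306 and 850 CPM under vehicle, a ratio of 1.04 (0.968 to 1.12). Of 16 members with 30 UMIs, 2 were higher past the threshold (H1f2 and H1f3), against 14.5% of all 8105 features, and 2 were lower (H4c4 and H2bc6), against 15.7%. H4c4 had 98 UMIs under RP-6306 and 131 UMIs under vehicle (log2 -0.45, -0.84 to -0.06). H1f3 had 49 UMIs under RP-6306 and 31 UMIs under vehicle, and H2bc6 had 11 UMIs under RP-6306 and 19 UMIs under vehicle, both with intervals that include 0. H2bc4 had 454 UMIs under RP-6306 and 374 UMIs under vehicle (log2 0.25). H2ac24 had 203 UMIs under RP-6306 and 164 UMIs under vehicle, H1f0 had 184 UMIs under RP-6306 and 151 UMIs under vehicle, and H2ac6 had 47 UMIs under RP-6306 and 55 UMIs under vehicle. The signs of H2ac24, H1f0 and H2ac6 did not hold under every alternative. The ratio had the same sign in macrophages as in tumour cells for 13 of the 16 members, and the same libraries gave both. The share of all features with the same sign in both classes was not computed, so this count cannot be read as a trait of histone genes.

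Set against tumour cells of the same library, the clustered histone genes together held a somewhat larger share of the UMIs in macrophages and both solitary genes a much smaller one. The clustered sum in macrophages was 1.22 times (1.17 to 1.27) the tumour-cell value under RP-6306 and 1.15 times (1.10 to 1.21) under vehicle. H1f0 was at 0.371 times under RP-6306 and 0.301 times under vehicle. H4c4 was at 1.51 times under RP-6306 and 1.59 times under vehicle, and H2bc4 at 1.47 times under RP-6306 and 1.37 times under vehicle. Not all clustered members were higher in macrophages. H4c9 was at 0.621 times under RP-6306 and 0.579 times under vehicle, and H1f5 at 0.728 times under RP-6306 and 0.682 times under vehicle. The G2/M list summed to 3534 CPM in RP-6306 macrophages and 3304 CPM in vehicle macrophages, and to 4792 CPM in RP-6306 tumour cells and 5452 CPM in vehicle tumour cells. Free tumour RNA in the droplets can add to macrophage counts, and tumour markers, which macrophages should lack, read 0.0854 times under RP-6306 and 0.0959 times under vehicle. Of the 10 members with at least 2000 UMIs in vehicle tumour cells, 9 had intervals above that of the tumour-marker sum in both libraries. The other, H1f10, read at the marker level, with 6 UMIs in RP-6306 macrophages and 6 UMIs in vehicle macrophages, 0.0890 times the tumour-cell level under RP-6306 and 0.0764 times under vehicle.

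**Figure D4:**
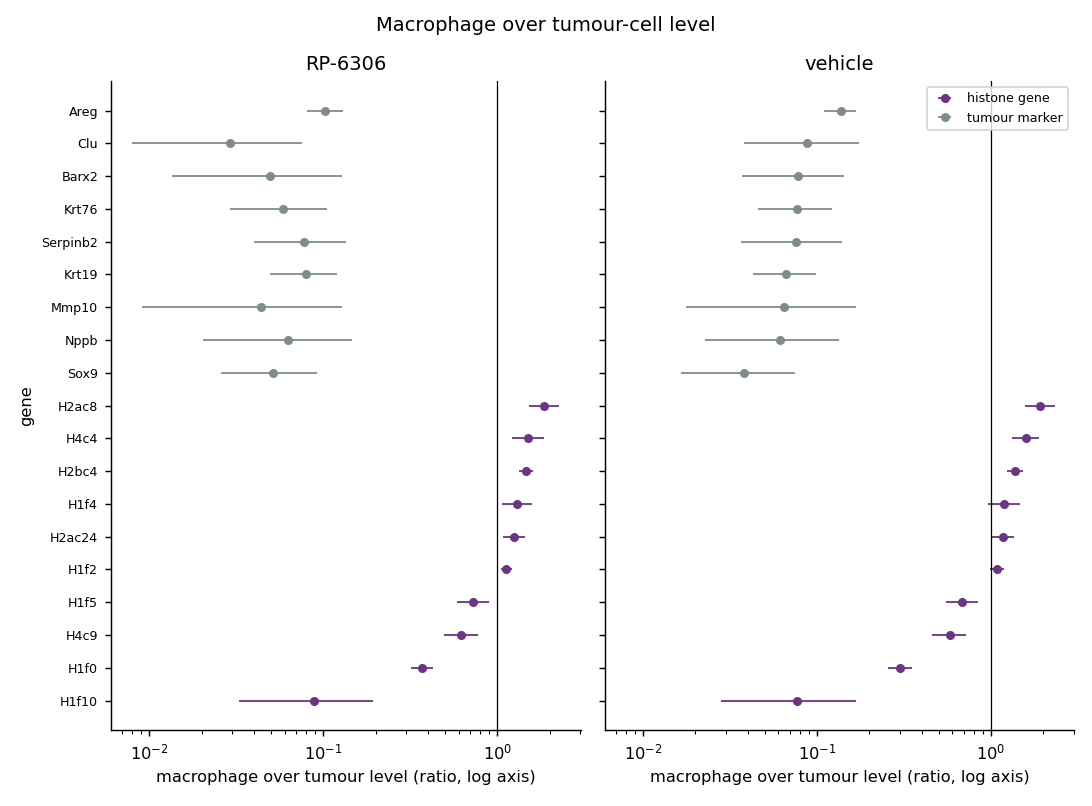
Macrophage over tumour-cell level on a log axis, in the RP-6306 library (left) and the vehicle library (right), for the 10 histone genes and 9 tumour markers with at least 2000 UMIs in vehicle tumour cells, with 95% counting intervals. H1f10 lies among the tumour markers, at 0.0890 under RP-6306 and 0.0764 under vehicle, and the other 9 histone genes lie above them, the lowest being H1f0 at 0.371 under RP-6306 and 0.301 under vehicle.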

How the data were processed

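Single-cell 3′ RNA-seq of 2 libraries was analysed from the deposited matrices of whole-number UMI counts per gene and barcode, which the authors made with Cell Ranger (7.1.0 per the file headers, 2.1.1 per the submitters' processing notes) and the mm10 genome per the submitters' processing notes. The members and lists used here were chosen with earlier results of these data known. Barcodes under 500 genes or above 15% mitochondrial UMIs were removed, then the 8% of cells per library with the highest Scrublet scores (scanpy 1.11.5), because the automatic threshold called 1 cell in the RP-6306 library and 0 in the vehicle library; this removed 808 RP-6306 and 684 vehicle cells. UMIs were summed per class and library and expressed as CPM, counts per 1000000 UMIs of the class. Ratios are RP-6306 over vehicle without a pseudocount, with exact conditional 95% intervals; levels have exact Poisson and shares exact binomial (Clopper-Pearson) intervals. With 1 library per group no p-value was computed; a feature counts as past the threshold at 0.32 on the log2 scale with at least 30 UMIs over both libraries in its class. Cells were thinned to 5000 UMIs for cell-cycle ranges and spread (527 RP-6306 and 506 vehicle tumour cells were shallower) and to 2000 for shares. Members named are all linker histones, the 12 with most UMIs, and the extremes of ratio and spread; H3c10 was added after its value was seen. Of the features, 52081 matched GENCODE M21, including all 72 histone rows. TMM factors came from edgeR 4.0.16 (R 4.3.3), used for scaling only. The ratio and its interval were tested on simulated Poisson counts. That is the model behind the interval, so the test did not cover spread beyond counting error. Other software was Python 3.11.15, numpy 2.4.6, scipy 1.17.1 and pandas 2.3.3.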

Additional observations from a re-analysis of the deposited data

How the results depend on the processing

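With 1 library per arm, no setting could be checked against replicates, and no replicate could be left out. No paired analysis was possible because each group has 1 library. Of the summary results over all alternatives 86 kept within their counting error or count range and 32 moved; of the values of named genes 374 did so, 33 moved and 1, H4c3 in tumour cells, reversed (log2 -0.55, and 0.19 with cells thinned to 2000 UMIs). The causes were not tested. In tumour cells the log2 ratio of the clustered sum was 0.10, and became 0.12 with TMM, 0.12 with median-of-ratios scaling, 0.14 as a mean of per-cell CPM, 0.14 with thinned cells and 0.17 at the vehicle shares of the 4 ranges. The 3 members higher past the threshold became 6 with TMM, 6 with median of ratios, 7 with per-cell means, 5 without doublet removal, 5 with all barcodes, 6 thinned and 7 at the vehicle shares. The 18 lower became 9 with log2(CPM + 1), and the median of -0.18 became -0.12 with log2(CPM + 1) and -0.26 thinned. In macrophages the log2 ratio of the sum, 0.18, was 0.29 thinned, 0.025 with the stricter gate and 0.086 with only cells that have C1qa. Their median of -0.00069 was 0.10 with a minimum of 100 UMIs, 0.14 thinned, 0.14 with the stricter gate and -0.10 with the wider gate. The 2 higher were 6 with a minimum of 10 UMIs, 1 with 100 and 4 thinned, and the 2 lower were 8, 1 and 0. With cells thinned to 2000 UMIs in place of 5000, log2 of the top over the bottom S quintile was 0.23 (0.34 at 5000) under RP-6306 and 0.73 (0.77) under vehicle, that of the G2/M quintiles 0.63 (0.72) under RP-6306, and the median variance over mean 1.02 (1.10) under RP-6306. The alternatives at the vehicle shares, with C1qa only, without cells rich in neutrophil markers and without shared barcodes were chosen after seeing the data. Values at the vehicle shares also reflect thinning to 5000 UMIs and the loss of shallower cells. Depth limits the 11 members with under 100 tumour-cell UMIs and the 44 with under 30 in macrophages.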
